A study of Homo sapiens with 4 samples.

Results

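The hypoxia pathway of RCC4 cells was described here through 36 genes of the 59050 in the count table. The members were taken by gene symbol and comprise the subunits of the hypoxia-inducible factors (HIF), the oxygen-sensing hydroxylases, VHL, and targets of HIF outside glycolysis. All 36 were found, and 35 passed the filter on low counts, the exception being HIF3A.

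RCC4 is an established human line of clear cell renal cell carcinoma (ccRCC) that lacks functional VHL, a background that all samples share. Cells carried a doxycycline-inducible lentiviral shRNA, either a scrambled sequence (shCtrl) or shPML#1, which targets the promyelocytic leukemia gene PML, and both groups received doxycycline at 100 ng/ml for 96 h. There were 4 samples, 2 of shCtrl and 2 of shPML, from 2 experiments with independent lentiviral infections, and bulk transduced populations rather than clones were used. All cells were kept at 20% oxygen, and cells with restored VHL or in low oxygen were not part of the design. The comparison therefore addresses how PML silencing bears on the hypoxia transcripts of cells in which the pathway is already engaged.

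In cells with oxygen, prolyl hydroxylases of the EGLN family modify the alpha subunits of HIF, and the VHL ubiquitin ligase then marks them for degradation. When oxygen falls, or when VHL is lost as in most ccRCC, the alpha subunits persist, pair with ARNT and activate genes that carry hypoxia response elements. Because this control acts on the proteins, transcript levels of the subunits do not report how much HIF protein is present.

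The promoters of 5 members are shown. With the replicate as a block in the edgeR fit, CA12 and EGLN3 were called higher in shPML cells and ANKRD37 and TMEM45A lower. None of these was called without the block. CA9, a widely used marker of VHL-deficient renal cells, was called in neither edgeR fit. The other members called with the block, ARNT2, NDUFA4L2 and ZNF395, are not among those shown. Sequences are from RefSeq (GRCh38.p14), read 5′ to 3′ on the strand of the gene from 250 bases before to 50 bases after the start site. They lie at chr15:63381797-63382096 (minus strand) for CA12, chr14:33951025-33951324 (minus strand) for EGLN3, chr9:35673678-35673977 (plus strand) for CA9, chr4:185396591-185396890 (plus strand) for ANKRD37 and chr3:100492369-100492668 (plus strand) for TMEM45A. Capitals mark the core of the hypoxia response element, ACGTG or GCGTG on either strand, where CACGT and CACGC are the same letters on the other strand.
CA12: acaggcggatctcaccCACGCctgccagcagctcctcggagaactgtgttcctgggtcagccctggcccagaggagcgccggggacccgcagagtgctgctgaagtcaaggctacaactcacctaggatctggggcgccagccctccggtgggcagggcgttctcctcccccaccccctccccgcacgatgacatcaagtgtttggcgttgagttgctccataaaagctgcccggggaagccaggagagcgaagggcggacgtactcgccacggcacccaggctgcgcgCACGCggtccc
EGLN3: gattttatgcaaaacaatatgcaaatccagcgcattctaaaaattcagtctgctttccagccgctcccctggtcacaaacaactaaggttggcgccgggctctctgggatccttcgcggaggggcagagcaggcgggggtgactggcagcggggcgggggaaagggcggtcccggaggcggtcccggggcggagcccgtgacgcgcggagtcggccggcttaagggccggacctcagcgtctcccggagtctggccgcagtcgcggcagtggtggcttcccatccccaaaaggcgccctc
CA9: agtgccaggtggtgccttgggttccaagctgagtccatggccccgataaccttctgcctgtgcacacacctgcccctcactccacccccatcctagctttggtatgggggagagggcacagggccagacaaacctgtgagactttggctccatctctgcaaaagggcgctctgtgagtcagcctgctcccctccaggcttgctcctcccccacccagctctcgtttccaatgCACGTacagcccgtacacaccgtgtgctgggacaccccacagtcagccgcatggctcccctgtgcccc
ANKRD37: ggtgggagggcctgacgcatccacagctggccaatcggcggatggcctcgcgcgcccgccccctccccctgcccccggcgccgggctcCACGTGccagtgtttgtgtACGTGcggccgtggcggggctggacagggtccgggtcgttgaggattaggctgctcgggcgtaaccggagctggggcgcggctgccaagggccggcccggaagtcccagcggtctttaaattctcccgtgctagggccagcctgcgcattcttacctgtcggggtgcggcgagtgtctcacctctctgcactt
TMEM45A: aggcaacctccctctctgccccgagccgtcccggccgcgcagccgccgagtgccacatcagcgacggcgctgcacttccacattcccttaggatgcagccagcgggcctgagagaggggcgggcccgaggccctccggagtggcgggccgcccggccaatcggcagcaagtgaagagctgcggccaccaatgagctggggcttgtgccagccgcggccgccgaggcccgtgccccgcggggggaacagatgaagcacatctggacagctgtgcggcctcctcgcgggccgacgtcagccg

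CA9 had 1 match, whose first base lay at position -18 from the start site. CA12 had 2 matches, at -234 and 39, and ANKRD37 had 2, at -162 and -143, the first of which reads as a core on both strands. EGLN3 and TMEM45A had 0 matches in this window, although both are known to respond to hypoxia, and the absence of these letters from 300 bases says nothing about more distant elements. Promoters were given for 29 of the 36 members, with 39 start sites between them. Those of ARNT2, VHL, VEGFA, BNIP3L, NDUFA4L2, NDRG1 and ZNF395 were not used here. The core stood in 28 of the 39 member promoters (71.8%) and in 48.4% of all 35116 promoters of that length, and ACGTG alone in 43.6% and 21.4%. A match describes letters in the sequence and was not tested as a binding site.

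The libraries held between 27781193 and 69870617 counted reads, and log2 levels correlated between libraries with a Pearson r of 0.968 to 0.986 across genes. Levels are given in CPM, the count of a gene per library size after scaling by the trimmed mean of M values (TMM). PML stood at 93.1 and 136 CPM in shCtrl replicates 1 and 2 and at 54.9 and 87.6 CPM in shPML replicates 1 and 2, with a log2 fold change of -0.69 ± 0.30 (SE, edgeR quasi-likelihood adjusted p = 0.32) and of -0.70 ± 0.11 (adjusted p = 4.2e-07) once the replicate was included as a block. The 6 renal epithelial markers, PAX8 and PAX2 among them, summed to between 978 and 1302 CPM in the 4 libraries. The 5 fibroblast markers summed to between 9.30 and 16.25 CPM. Of these, COL1A1 alone was at 9.19 to 16.25 CPM, while DCN and LUM were at 0 in every library. The library of shPML replicate 2 stood apart. It held 138 genes above 2 CPM that were below 0.2 CPM in each of the other libraries, summing to 957 CPM, and the other 3 libraries each held 0 such genes. Among 18 markers of myeloid blood cells, chosen after this was seen, the summed level was between 2.25 and 2.92 CPM in the other libraries and 370 CPM in shPML replicate 2, where 16 of the 18 were higher than in every other library. LYZ reached 85.4 CPM and CD14 42.8 CPM there, and CD68, C1QB and the T cell marker CD3E were at 0. The part of these transcripts in the results was not tested. Results are therefore given beside the log2 ratio of replicate 1, which does not use that library.

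The hypoxia transcripts moved in both directions, and the share that passed the call rule below was close to that of all genes. Without the fold threshold, the member share with a positive change was above that of all genes. This held by adjusted p with the block and by unadjusted p without it, and the difference was not tested. In bulk RNA, less RNA per cell and fewer cells of one state cannot be told apart. The call rule asked for an adjusted p below 0.05 together with a log2 fold change of more than 0.5 in either direction. In the fit without a replicate block, 0 of the 35 tested members were called by edgeR in either direction, against 0.412% of the 16516 genes tested (0.0787% with a rise and 0.333% with a fall). Without adjustment 11 members had p under 0.05, 6 with a positive change (7.8% of all genes) and 5 with a negative change (10.1% of all genes). With the replicate block 7 of the 35 were called, against 19.1% of all genes. The 3 that rose with the block were EGLN3, CA12 and NDUFA4L2 (background 8.57%), and the 4 that fell were ARNT2, ZNF395, ANKRD37 and TMEM45A (background 10.5%). At any fold, 10 members had an adjusted p under 0.05 with a positive change (background 14.5%) and 7 with a negative change (background 15.7%). In replicate 1 alone 5 members were higher by more than 0.5 (background 10.1%) and 4 lower (background 13.2%), on the log2 scale. There each of the 7 called differed by more than 0.5 in the same direction as in the fit. The member with the smallest adjusted p in the fit without the block was CA12 (adjusted p = 0.068).

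The median log2 fold change of the 35 members was 0.21 in both fits, beside 0.01 without and 0.0042 with the block over all genes tested. Positive values were found for 25 of the 35, beside 8406 of the 16516 genes tested. Within the experiments the median log2 ratio of the members was 0.22 in replicate 1 and 0.13 in replicate 2, beside 0.0014 and 0 for all genes. In the fit without the block, leaving out shPML replicate 2 gave a median of 0.088, beside -0.015 for all genes. The ratio was positive in both experiments for 23 members, negative in both for 10, and of opposite sign for EGLN2 and BHLHE41. Over all genes tested it was positive in both for 6111 and negative in both for 6124, and 25.4% had opposite signs. Both shPML libraries lay above both shCtrl libraries for 14 of the 35 members, a larger share than the 23.1% of all genes, which was not tested. They lay below them for 7 (24.9% of all genes), and the groups overlapped for the other 14.

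**Figure D1:**
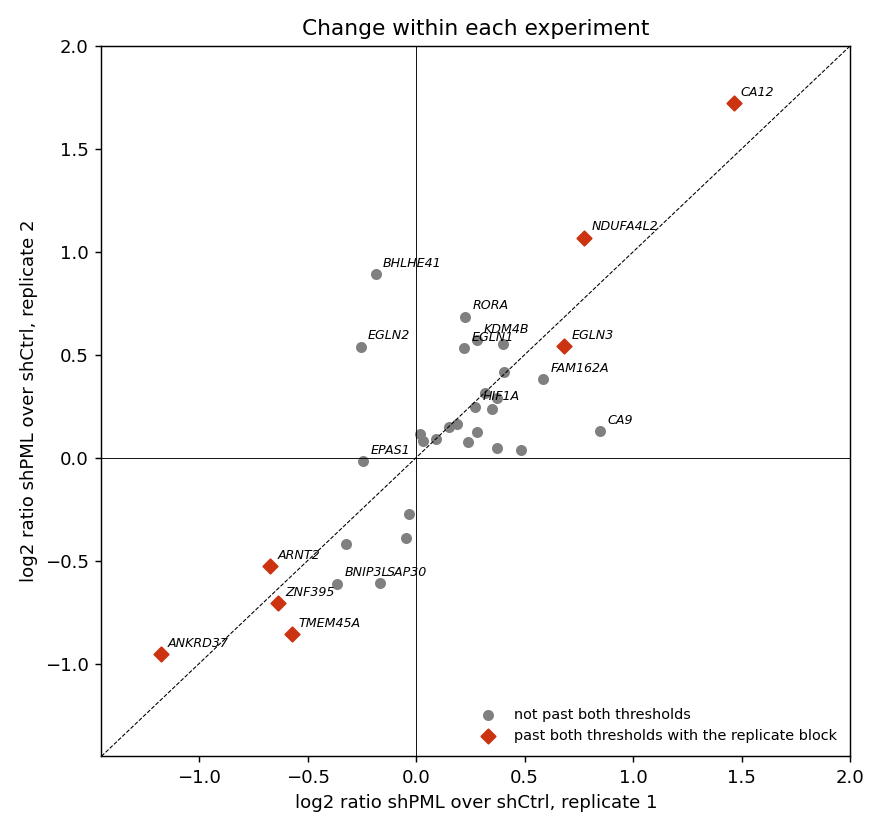
Each point is 1 of the 35 tested members, with the log2 ratio of shPML over shCtrl (CPM plus a pseudocount of 0.5) in replicate 1 on the horizontal axis and in replicate 2 on the vertical axis, and the dashed line marks equal ratios. Red diamonds are the 7 members called with the replicate block, which lie beyond 0.5 in both experiments, and BHLHE41 and EGLN2 are the 2 points with a negative ratio in replicate 1 and a positive one in replicate 2.

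To see which HIF genes the line uses, levels were compared per kilobase of exonic length in the control cells. NDUFA4L2 had the highest level of all members, 197 and 281 CPM per kilobase in the shCtrl libraries, which placed its mean at percentile 99.0 of the genes tested. It was followed by NDRG1 at a mean of 92.6, BNIP3 at 87.3, STC2 at 72.1, BHLHE40 at 69.5 and CA9 at 55.2 CPM per kilobase. The ranges of the shCtrl libraries overlapped between NDRG1 and BNIP3, between BNIP3 and STC2, and between BHLHE40 and STC2, so the order among these neighbours was not beyond their spread. At the low end stood CA12 at 1.3, RORA at 0.6 and EGLN2 at 0.318 CPM per kilobase. The levels and order of EGLN2 and EGLN1 are uncertain, because 66.6% and 69.3% of their exonic bases are shared with another gene on the same strand. Among the HIF subunits, hydroxylases and VHL, the highest was EPAS1 at 37.3 CPM per kilobase (percentile 89.4).

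**Figure D2:**
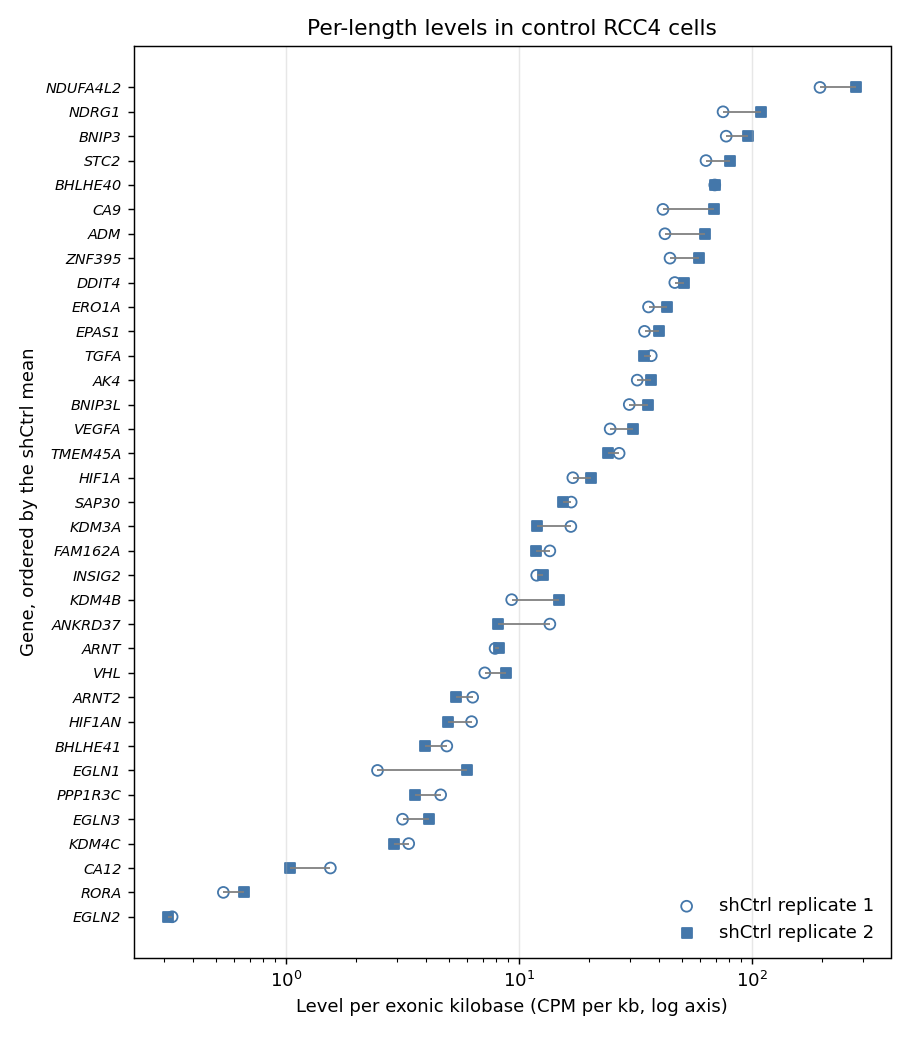
The level per kilobase of exonic length in the 2 shCtrl libraries is plotted on a log axis for the 35 tested members, ordered by their mean, and grey lines join both libraries. NDUFA4L2 stands highest with a mean of 239 and EGLN2 lowest with 0.318 CPM per kilobase, and the libraries lie farthest apart for EGLN1. The levels of EGLN1 and EGLN2 are uncertain because most of their exonic bases are shared with another gene.

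The HIF alpha subunits were examined first. HIF1A (chr14:61695513-61748259), which encodes HIF-1alpha, measured 73.1 and 87.6 CPM in shCtrl and 88.4 and 104 CPM in shPML replicates 1 and 2. Both shPML values were above both shCtrl values, the upper shCtrl value by less than 1 CPM. The 2 experiments gave log2 ratios of 0.27 and 0.24, and the fitted log2 fold change was 0.26 ± 0.18 (SE, adjusted p = 0.54), and 0.26 ± 0.11 with the block (adjusted p = 0.061), and it was not called. EPAS1 (chr2:46297407-46386697) encodes HIF-2alpha, the subunit most tied to ccRCC growth. Its level was 179 and 206 CPM in shCtrl and 151 and 204 CPM in shPML. The groups overlapped, with the shPML library of replicate 1 the lowest of the 4 (ratios of -0.24 and -0.02). The change was -0.12 ± 0.20 (adjusted p = 0.84) or -0.13 ± 0.10 with the block (adjusted p = 0.36). Per kilobase, EPAS1 transcripts exceeded those of HIF1A in every library, by a ratio of 2.03 and 1.96 in shCtrl and of 1.42 and 1.63 in shPML. These ratios did not overlap between groups, but the difference was not tested. HIF3A, the third alpha subunit, had 1 count in each of 3 libraries and 0 in shPML replicate 2, under the limit of 3 counts (0.0418 to 0.109 CPM), so no difference could be detected at this depth.

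Of the beta subunits, ARNT2 was called and ARNT was not. ARNT (chr1:150809713-150876708), the common partner of the alpha subunits, had 38.6 and 40.1 CPM in shCtrl and 46.9 and 43.8 CPM in shPML, with ratios of 0.28 and 0.13 on the log2 scale in replicates 1 and 2. Its groups did not overlap, yet the fit with the block gave 0.21 ± 0.12 (adjusted p = 0.20), past no threshold. ARNT2 (chr15:80404382-80597933), its paralogue, had 43.5 and 37.0 CPM in shCtrl and 27.1 and 25.6 CPM in shPML. Each shPML value was lower than each shCtrl value, with log2 ratios of -0.67 and -0.53. The fall of ARNT2 reached -0.61 ± 0.12 with the block (adjusted p = 6.4e-05) and was not called without it (-0.61 ± 0.17, adjusted p = 0.15). The ratio of ARNT to ARNT2 per kilobase was 1.25 and 1.52 in shCtrl and 2.44 and 2.41 in shPML, a difference that was not tested.

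**Figure D3:**
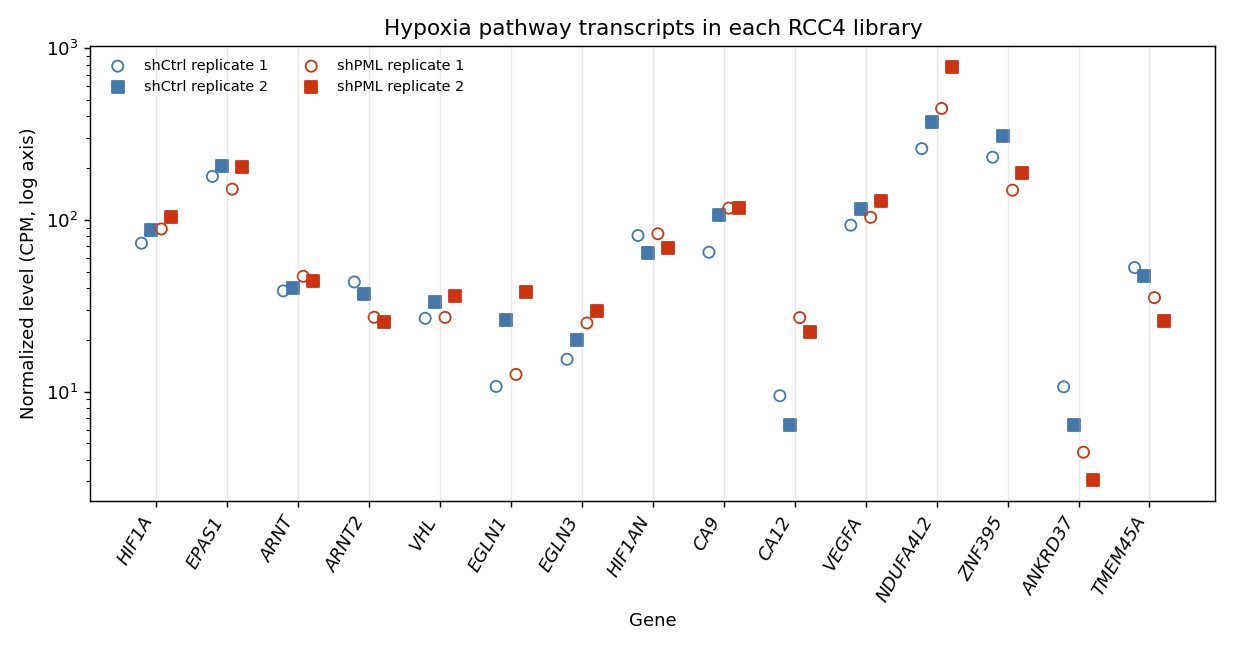
TMM-normalized levels in CPM on a log axis are shown for 15 members in the 4 libraries, with shCtrl in blue, shPML in red, open circles for replicate 1 and filled squares for replicate 2. CA12 separates most widely (6.36 and 9.46 against 22.1 and 26.9 CPM), ANKRD37 lies lower in both shPML libraries, and the libraries of EGLN1 group by replicate.

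Among the oxygen sensors, EGLN3 was the one called. EGLN3 (chr14:33924231-33951081) encodes the prolyl hydroxylase PHD3, itself a target of HIF, and had 15.4 and 20.03 CPM in shCtrl and 25.1 and 29.4 CPM in shPML. The groups did not overlap, and the log2 ratios were 0.68 in replicate 1 and 0.54 in replicate 2. The rise was 0.63 ± 0.13 with the block (adjusted p = 1.0e-04) and not past the threshold without it (0.62 ± 0.21, adjusted p = 0.21). EGLN1 (chr1:231363756-231422287), the main hydroxylase of HIF, had 10.7 and 26.03 CPM in shCtrl and 12.6 and 37.9 CPM in shPML. The libraries separated by replicate rather than by shRNA, with replicate 2 higher than replicate 1 by 1.44 on the log2 scale (adjusted p = 3.5e-13). The log2 ratios of shPML over shCtrl were 0.22 in replicate 1 and 0.53 in replicate 2. The condition difference was 0.39 ± 0.13 with the block (adjusted p = 0.020), under the fold threshold. In the annotation 69.3% of the exonic bases of EGLN1 are shared with AL445524.2 on the same strand, which was listed at 0 counts in all libraries. EGLN2, the PHD1 gene, was at 0.98 and 0.94 CPM in shCtrl and 0.74 and 1.6 CPM in shPML. Its ratios were of opposite sign, -0.26 in replicate 1 and 0.54 in replicate 2, and its change was 0.16 ± 0.52 with the block (adjusted p = 0.86). Of its bases 66.6% are shared with the readthrough gene RAB4B-EGLN2, also at 0. How the counting treated shared bases is not given in the sources used here, so the levels of EGLN1 and EGLN2 and their order against the other sensors are uncertain.

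HIF1AN and VHL did not separate between the groups. HIF1AN, which encodes the asparaginyl hydroxylase FIH, had 81.0 and 64.5 CPM in shCtrl and 82.9 and 68.1 CPM in shPML, and both replicate 1 libraries lay above both replicate 2 libraries. Its ratio in replicate 1 was 0.03, and its change was 0.06 ± 0.11 with the block (adjusted p = 0.77). VHL (chr3:10141008-10152220) was transcribed in all libraries, at 26.7 and 33.1 CPM in shCtrl and 27.0 and 35.9 CPM in shPML. The replicate 1 values nearly coincided, with a ratio of 0.02, and the change was 0.07 ± 0.12 with the block (adjusted p = 0.75). The antisense gene AC034193.1 shares 26.7% of the exonic bases of VHL. A count over exons does not show whether the transcript encodes a working protein. The 4 partners of VHL in its ubiquitin ligase (ELOB, ELOC, CUL2 and RBX1) had 0 called in either fit and a median log2 fold change of 0.16 (0.25 in replicate 1). With 0.412% of all genes called without the block and 19.1% with it, 0 of 4 does not set them apart.

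Of the transcripts for pH control and secreted factors, CA12 showed the largest change of all members. CA12 (chr15:63321378-63381846) encodes a membrane carbonic anhydrase and had 9.46 and 6.36 CPM in shCtrl and 26.9 and 22.1 CPM in shPML. The lowest shPML value was more than the sum of the shCtrl values, and the log2 ratios were 1.46 in replicate 1 and 1.72 in replicate 2. CA12 rose by 1.65 ± 0.15 with the block (adjusted p = 5.9e-14). Without the block edgeR gave 1.63 ± 0.26 and did not call it (adjusted p = 0.068), whereas DESeq2 without a block did (1.64, adjusted p = 1.1e-05). CA9 (chr9:35673918-35681159), the related carbonic anhydrase that is used as a marker of ccRCC, had 64.7 and 107 CPM in shCtrl and 117 in both shPML libraries. The groups did not overlap, but the ratio was 0.85 in replicate 1 and 0.13 in replicate 2. The fitted change of 0.49 ± 0.12 with the block (adjusted p = 6.4e-04) fell just short of the fold threshold, which DESeq2 with the block passed at 0.51 (adjusted p = 0.0088). In edgeR without the block the change of CA9 was 0.45. In that fit it was 0.14 without shCtrl replicate 1 and 0.85 without shCtrl replicate 2.

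VEGFA, the angiogenic factor whose output marks VHL loss, had 93.0 and 116 CPM in shCtrl and 103 and 129 CPM in shPML. The groups overlapped, and the ratio was 0.15 in each experiment (0.15 ± 0.10 with the block, adjusted p = 0.30). TGFA, a ligand of the epidermal growth factor receptor, had a fitted value of 0.18 ± 0.10 with the block (adjusted p = 0.19), and STC2, a secreted glycoprotein, one of 0.21 ± 0.10 (adjusted p = 0.099), neither past a threshold, and the replicate 1 ratios were 0.19 and 0.37. ADM, which encodes the vasodilator adrenomedullin, went the other way at -0.37 ± 0.11 (adjusted p = 0.0041), a fall smaller than the fold threshold, with 98.7 and 147 CPM in shCtrl and 78.7 and 110 CPM in shPML and a replicate 1 ratio of -0.32. Its groups overlapped because replicate 2 was higher than replicate 1 by 0.53 on the log2 scale (adjusted p = 9.1e-05), and in the fit without a block its value ran from -0.64 without shPML replicate 2 to -0.076 without shCtrl replicate 2.

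Mitochondrial targets moved in both directions. NDUFA4L2 (chr12:57234903-57240692) encodes a mitochondrial protein related to a respiratory chain subunit and is abundant in ccRCC. It had 260 and 371 CPM in shCtrl and 445 and 779 CPM in shPML, and the groups did not overlap. The log2 ratios were 0.77 and 1.07, and NDUFA4L2 rose by 0.92 ± 0.10 with the block (adjusted p = 9.3e-12). Without the block edgeR gave 0.96 ± 0.33 and did not call it (adjusted p = 0.22), whereas DESeq2 without a block did (0.97, adjusted p = 0.048). Replicate 2 was also higher than replicate 1 by 0.66 (adjusted p = 1.5e-07), and without shPML replicate 2 the fit without a block gave 0.50. FAM162A, a mitochondrial protein linked to hypoxic cell death, had ratios of 0.58 and 0.38 and a rise of 0.49 ± 0.12 with the block (adjusted p = 6.4e-04), under the fold threshold, which DESeq2 with the block just passed (0.50, adjusted p = 0.0021). In edgeR without the block the change of FAM162A was 0.50, and 0.27 when shPML replicate 1 was left out.

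The mitophagy receptors BNIP3 and BNIP3L had changes of opposite sign. BNIP3 was at 223 and 277 CPM in shCtrl and 263 and 292 CPM in shPML, an overlap of the groups with a replicate 1 ratio of 0.24 and a change of 0.16 ± 0.10 (adjusted p = 0.24). BNIP3L had 111 and 134 CPM in shCtrl and 86.2 and 87.4 CPM in shPML, where the groups did not overlap. With a replicate 1 ratio of -0.36, it fell by 0.49 with the block (SE 0.11, adjusted p = 2.2e-04), which did not reach the fold threshold. AK4, a mitochondrial adenylate kinase, had values of -0.03 in replicate 1 and -0.15 ± 0.10 in the fit with the block (adjusted p = 0.26). BNIP3 and AK4 have processed pseudogenes that can take or give reads, so their counts are uncertain.

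Growth and stress regulators were represented by DDIT4 and NDRG1. DDIT4, an inhibitor of mTORC1, had 81.6 and 89.1 CPM in shCtrl and 108 and 131 CPM in shPML. The groups did not overlap, with a ratio of 0.40 in replicate 1, and its rise with the block of 0.48 ± 0.11 (adjusted p = 2.9e-04) was under the fold threshold. The antisense gene DDIT4-AS1, which shares 48.6% of the bases of DDIT4, had 56 and 4 counts in shCtrl and 81 and 0 counts in shPML. NDRG1, a stress-induced growth regulator, had 283 and 413 CPM in shCtrl and 275 and 315 CPM in shPML, which overlap, and its change was -0.05 in replicate 1 and -0.22 ± 0.10 in the fit (adjusted p = 0.089).

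The chromatin and transcription group held 9 members. With the block 0 of them rose past both thresholds (8.57% of all genes), and ZNF395 and ANKRD37 fell (10.5% of all genes). ZNF395, a transcription factor gene induced by hypoxia, had 231 and 307 CPM in shCtrl and 149 and 188 CPM in shPML. The groups did not overlap, and the log2 ratios of -0.64 and -0.70 lay close together. It fell by 0.67 with the block (SE 0.10, adjusted p = 1.3e-07), with an adjusted p of 0.20 without it. ANKRD37 (chr4:185396841-185400241), a small ankyrin repeat protein gene, was among the weaker transcripts at 10.7 and 6.39 CPM in shCtrl and 4.44 and 3.06 CPM in shPML. The shPML libraries were the lowest of the 4, with ratios of -1.18 and -0.95. Its fall was -1.17 ± 0.23 with the block (adjusted p = 4.0e-05) and -1.18 ± 0.36 without (adjusted p = 0.19), in each of these fits the largest of the members. In the fit without the block, leaving out shCtrl replicate 1 gave -0.75 for ANKRD37, a smaller fall than the -0.85 of ZNF395. Replicate 2 was lower than replicate 1 by a log2 difference of -0.64 (adjusted p = 0.032). On the opposite strand 54.7% of its bases are shared with UFSP2, and the strand setting of the counting is not given in the sources used here.

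The H3K9 demethylases KDM3A, KDM4B and KDM4C, which remove repressive methylation from histones, had changes of 0.09, 0.43 and 0.30 with the block and ratios of 0.09, 0.28 and 0.35 in replicate 1. KDM4B alone had an adjusted p under 0.05 (0.0012), and its libraries separated by replicate as well, with 69.4 and 111 CPM in shCtrl and 84.3 and 165 CPM in shPML. The circadian repressor BHLHE40 had 241 and 242 CPM in shCtrl and 320 and 322 CPM in shPML. These groups did not overlap and the libraries within each nearly coincided. The replicate 1 ratio was 0.40, and the rise of 0.41 ± 0.10 with the block (adjusted p = 5.8e-04) stayed under the fold threshold. Its paralogue BHLHE41 had ratios of -0.19 in replicate 1 and 0.89 in replicate 2, so the experiments disagreed. RORA, a nuclear receptor, had ratios of 0.23 and 0.69 and a fitted value of 0.48 ± 0.19 (adjusted p = 0.055). SAP30, a subunit of the Sin3 histone deacetylase complex, had ratios of -0.17 and -0.61 and a fall of -0.39 ± 0.15 with the block (adjusted p = 0.039), under the fold threshold.

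Of the members that act in the endoplasmic reticulum, lipid and glycogen metabolism, TMEM45A was the one called. TMEM45A (chr3:100492619-100577444), a transmembrane protein gene induced by hypoxia, had 52.7 and 47.2 CPM in shCtrl and 35.2 and 25.8 CPM in shPML. The groups did not overlap, and the log2 ratios were -0.57 in replicate 1 and -0.86 in replicate 2. It fell by 0.72 with the block (SE 0.12, adjusted p = 2.9e-06), with an adjusted p of 0.17 without it. ERO1A, the oxidase that drives disulfide formation, had ratios of 0.32 in both experiments and rose by 0.32 ± 0.10 with the block (adjusted p = 0.0089), under the fold threshold. INSIG2, which retains the sterol sensor SCAP in the membrane, and PPP1R3C, which brings a phosphatase to glycogen, had fitted values of 0.27 and 0.35 (adjusted p = 0.092 and 0.10) and replicate 1 ratios of 0.48 and 0.37.

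**Figure D4:**
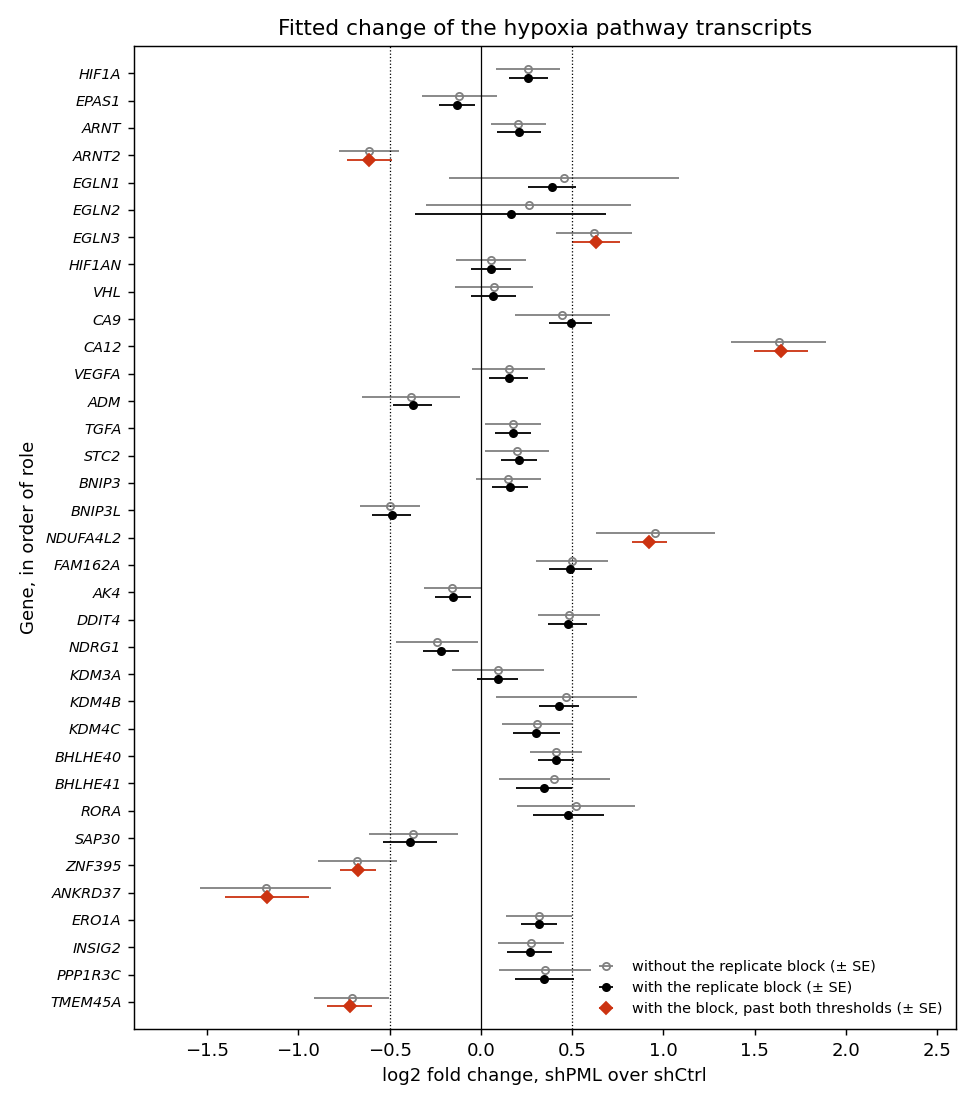
Fitted log2 fold changes of shPML over shCtrl with their SE are drawn for the 35 tested members, in grey without and in black or red with the replicate block, and dotted lines mark 0.5 in each direction. The estimates nearly coincide while the errors shrink with the block, and red diamonds mark the 7 members past both thresholds, from CA12 at 1.65 to ANKRD37 at -1.17.

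The experiments differed as well as the shRNAs. The median absolute log2 difference of the members was 0.31 between experiments and 0.35 between shRNAs, beside 0.28 and 0.32 for all genes. The experiment difference exceeded the condition difference in absolute log2 terms for 13 of the 35 members, beside 46.9% of all genes tested. Replicate 2 and replicate 1 differed with an adjusted p under 0.05 and beyond 0.5 for 6 members, against 13.5% of all genes, namely EGLN1, KDM4B, NDUFA4L2, ADM and RORA, which were higher in replicate 2, and ANKRD37, which was lower.

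Other genes of the pathway were taken from lists made by role. Among 10 coactivators and modifiers of HIF, EP300 and CREBBP included, 0 were called in either fit. The shares of all genes were 0.412% without the block and 19.1% with it, so 0 of 10 does not set them apart. Their median log2 fold change was -0.15 (-0.054 in replicate 1). Among 20 glycolytic targets the median was 0.31 (0.27 in replicate 1), and with the block 2 rose and 2 fell, a share of called genes near the 19.1% of all genes. The glucose transporter SLC2A3 had 36.5 and 28.4 CPM in shCtrl and 103 in both shPML libraries, a rise of 1.67 ± 0.18 that was called without the block as well (adjusted p = 0.048), with a ratio of 1.49 in replicate 1. SLC2A1, the main glucose transporter of renal carcinoma cells, fell by 0.75 with the block (adjusted p = 1.0e-09), and PFKFB3, a regulator of glycolytic flux, fell by 0.68 (adjusted p = 4.6e-08), and their replicate 1 ratios were -0.68 and -0.70. Of 40 further HIF targets, 34 passed the filter, 9 rose and 2 fell with the block, beside 8.57% and 10.5% of all genes, and the median was 0.15 (0.17 in replicate 1). In replicate 1 alone 11 were higher (10.1% of all genes) and 2 lower (13.2% of all genes) by more than 0.5, on the log2 scale. ANGPTL4, an inhibitor of lipoprotein lipase, had 13.7 and 6.33 CPM in shCtrl and 184 and 216 CPM in shPML, with log2 ratios of 3.70 and 4.99. It rose by 4.31 ± 0.41 without the block (adjusted p = 0.048), a change larger than that of any member. NT5E, an ectonucleotidase, rose by 1.75 with the block (adjusted p = 2.6e-19), and EDN1, which encodes endothelin 1, fell by 1.79 without the block (adjusted p = 0.048), and their replicate 1 ratios were 1.48 and -1.54. The calls of SLC2A3, ANGPTL4 and EDN1 without the block were lost under relative log expression (RLE) scaling, where 0 genes passed in edgeR and 2967 had an unadjusted p under 0.05. Of 10 proliferation genes 9 fell with the block, beside 10.5% of all genes, with a median of -1.01 (-0.96 in replicate 1). These lists were made with earlier results known, and their medians stand beside 0.01 for all genes.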

How the data were processed

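RNA of RCC4 cells was measured by stranded mRNA sequencing in 4 libraries. According to the labels and methods, the authors trimmed reads with Trimmomatic 0.39, mapped them to GRCh38 using STAR and obtained reads per gene using featureCounts 1.6.4. The deposited table holds raw integer counts that were not normalized. Genes were those of a Gencode release, whose number, like the strand setting and the treatment of shared bases, is not given in the sources used here. Columns were matched by name, the unnumbered column of each condition being taken as replicate 1 because the other carries the number 2. The deposited record notes that labels of 2 samples had been swapped and were corrected.

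Counts were filtered with filterByExpr (16516 genes left), TMM-normalized and tested in R 4.3.3 with the quasi-likelihood test of edgeR 4.0.16 and Benjamini-Hochberg adjustment over all genes. Calls needed an adjusted p below 0.05 with a log2 fold change of more than 0.5 in either direction. SE was the absolute log2 fold change divided by the square root of F. Ratios within replicates used CPM plus a pseudocount of 0.5. Levels per kilobase used the exonic length in the count table, and all positions are those of that table (GRCh38). The limit for a value of 0 was 3 counts per library, and it covers counting error only. For 2 samples against 2, the smallest two-sided p of an exact permutation test is 0.333.

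The replicate numbers were read as the 2 experiments, and the replicate 1 libraries deviated from their group means together, with a correlation of 0.603 across genes. The common dispersion was 0.0813 without and 0.0137 with the replicate block. Counts were also simulated for shPML against shCtrl (16292 genes). They used a replicate effect for each gene taken from these data and the common dispersion of the fit with the block. The fit without the block called 0 of 200 changed genes, and the fit with it called 75 of 100 at a log2 change of 0.7 and 100 of 100 at 1.5, beside 7 unchanged genes. Because these settings favour the block by construction, the simulation cannot show which fit serves the data better. DESeq2 1.42.0 (with and without the block), RLE scaling, other count filters and fold thresholds, and leaving out each library were tried as alternatives. Only the fits named with the block included it. Replicate 1 alone was added after the myeloid transcripts were seen.

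The members and lists were chosen with earlier results of these data known. Values in every library were given for the HIF subunits, hydroxylases, VHL, CA9, VEGFA, NDUFA4L2 and each called member, and for others (ADM, BNIP3, BNIP3L, DDIT4, NDRG1, KDM4B and BHLHE40) after their values were seen. Of each further list, up to 3 genes called with the block and with groups that did not overlap were named. They were those with the largest absolute log2 fold changes, so they do not stand for their list. The authors' own comparison results were not used.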

Additional observations from a re-analysis of the deposited data

How the results depend on the processing

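With 2 libraries in a group, the fit without a block called 13 genes higher and 55 lower in all, and 0 members in either direction. The pairing of libraries by experiment changed these counts. The replicate block gave 1415 genes higher and 1735 lower, with 3 members higher and 4 lower, and changed no other call of a member. DESeq2 gave 577 and 898 genes without the block (2 members higher, 0 lower) and 1109 and 1386 with it (5 higher, 4 lower). RLE scaling left 0 genes in each direction (edgeR, smallest adjusted p 0.0501, 2967 genes and 11 members at an unadjusted p under 0.05), no filter on low counts gave 891 and 946 (2 and 3 members), and at least 10 counts in every library 53 and 144. Replicate 1 alone, with no test, had 1660 genes higher and 2186 lower beyond 0.5, with 5 members higher and 4 lower. Leaving out each library gave 0 to 187 genes higher, 0 to 61 lower and 0 members, and a lone library is assumed to vary like the other group. The 187 came without shPML replicate 1, and the counts were 0 without any one of the other 3. The member median moved from 0.21 to between 0.088 (without shPML replicate 2) and 0.24. The cause was not tested.

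The fits that left out a library had no replicate block, so the experiments were then unequally represented in the groups. A difference between experiments can therefore enter these values. In these fits the sign turned for 10 members that were not called. Their log2 fold changes ran from -0.35 to 0.074 for EPAS1, -0.54 to 1.22 for EGLN1, -0.38 to 0.72 for EGLN2, -0.11 to 0.24 for HIF1AN, -0.14 to 0.26 for VHL, -0.016 to 0.31 for VEGFA, -0.47 to 0.049 for NDRG1, -0.18 to 0.37 for KDM3A, -0.10 to 0.87 for KDM4B and -0.044 to 0.74 for BHLHE41. Reversed values also included EGLN1 at -0.04 and VHL at -0.06 without shCtrl replicate 1, HIF1AN at -0.10 without shPML replicate 1 and KDM3A at -0.14 without shCtrl replicate 2. The 7 members called with the block kept their direction without each library. Of these, ANKRD37 (-0.75 without shCtrl replicate 1) and NDUFA4L2 (0.50 without shPML replicate 2) moved by over 1.5 times. So did other members with an adjusted p under 0.05 in the fit with the block. In these fits without a block they ran from -0.64 to -0.076 for ADM, 0.14 to 0.85 for CA9, 0.18 to 0.45 for ERO1A, 0.27 to 0.69 for FAM162A and -0.70 to -0.12 for SAP30. Of the 35 tested members 33 had at least 100 counts in every library.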

Other observations

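Genes that lie antisense to members differed in how their counts followed the experiments, and the genes named here were chosen after their values were seen. DDIT4-AS1 had 56 and 81 counts in the shCtrl and shPML libraries of replicate 1 and 4 and 0 in those of replicate 2. In CPM of the library totals, without TMM scaling, these were 1.04 and 1.16 against 0.108 and 0. AC034193.1, opposite VHL, had 21 and 38 counts in replicate 1 and 0 and 1 in replicate 2, and AL133453.1, opposite ERO1A, had 44 and 49 against 0 and 1. The more abundant antisense neighbours did not show this once the depth was taken into account, and neither did the weak BHLHE40-AS1. BHLHE40-AS1, opposite BHLHE40, stood at 0.32 and 0.60 CPM in replicate 1 and 0.30 and 0.40 CPM in replicate 2. UFSP2, opposite ANKRD37, stood at 15.9 and 16.3 CPM in replicate 1 and 16.2 and 12.3 CPM in replicate 2, WDR5B, opposite FAM162A, at 12.9 and 10.98 against 11.7 and 8.68 CPM, and SHMT2, opposite NDUFA4L2, at 299 and 208 against 312 and 194 CPM.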
